A study of Mus musculus with 9 samples.

Results

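The complement genes followed here were 8 genes chosen by name: the C1q chains C1qa, C1qb and C1qc, the central component C3, the alternative pathway proteins Cfb and Cfp, and the anaphylatoxin receptors C3ar1 and C5ar1. Every probe whose accession belonged to one of them was taken, which gave 10 probes, since C3 and C3ar1 each had a pair of probes. They stood among 16535 named genes and 41174 probes. The choice was made with earlier results of these data known. RNA came from FDCPmix, a mouse line of multipotent hematopoietic progenitors (MPCs) that self-renews in culture, and was hybridized to Agilent 1-color arrays. MPCs carried an empty virus (EV), a lentivirus encoding shRNA against Gata2 (Gata2 KD), or a lentivirus encoding shRNA against Pu.1 (Pu.1 KD, gene symbol Spi1), and in all 3 groups live GFP+ cells were sorted 5 days after transduction. There were 3 arrays per group. The control virus carried no hairpin, and all groups came from 1 cell line. The paper states that cells were transduced as triplicate samples, while nothing in the labels says whether the 3 samples of a group were separate cultures. The p-values therefore measure the spread between these samples, which may be technical.

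Complement is a set of proteins that tag and lyse microbes and call in phagocytes. C1q, built from the products of C1qa, C1qb and C1qc, starts the classical pathway, C3 is the protein on which the pathways converge, factor B (Cfb) supplies the protease of the alternative pathway C3 convertase, and properdin (Cfp) stabilizes that convertase. Fragments of C3 and C5 are sensed by C3ar1 and C5ar1. Most circulating complement is made by the liver, but macrophages are a main source of C1q, and myeloid cells make and store properdin and carry both receptors. GATA2 and PU.1 are transcription factors of progenitor and mast cells and of myeloid cells, respectively, and the comparisons asked how lowering each of them changed MPC gene expression.

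The 250 bases before the start site were read from RefSeq promoter windows (mouse build GRCm38.p6) and searched on both strands for the letters GGAAGTG and GAGGAA, which ETS factors such as PU.1 can bind, and AGATAA and TGATAA, which GATA factors can bind. Of the 8 genes, 6 had a window (not C1qa and Cfb). The windows of the neighboring genes C1qb and C1qc are shown because their probes moved differently, and those of C3, Cfp and C3ar1 because these genes moved most in 1 of the comparisons or fell in Pu.1 KD. Capitals mark matches.
C1qb (chr4:136886201-136886450, minus strand): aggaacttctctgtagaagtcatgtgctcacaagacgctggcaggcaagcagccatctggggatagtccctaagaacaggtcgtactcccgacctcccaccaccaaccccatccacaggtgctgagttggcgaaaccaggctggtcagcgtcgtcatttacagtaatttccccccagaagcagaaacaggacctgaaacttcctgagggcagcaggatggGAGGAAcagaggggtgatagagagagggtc
C1qc (chr4:136892915-136893164, minus strand): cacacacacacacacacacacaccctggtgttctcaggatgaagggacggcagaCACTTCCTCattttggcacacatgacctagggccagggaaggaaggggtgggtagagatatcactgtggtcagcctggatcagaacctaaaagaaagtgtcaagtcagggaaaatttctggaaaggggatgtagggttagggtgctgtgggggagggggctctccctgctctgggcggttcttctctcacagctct
C3 (chr17:57228137-57228386, minus strand): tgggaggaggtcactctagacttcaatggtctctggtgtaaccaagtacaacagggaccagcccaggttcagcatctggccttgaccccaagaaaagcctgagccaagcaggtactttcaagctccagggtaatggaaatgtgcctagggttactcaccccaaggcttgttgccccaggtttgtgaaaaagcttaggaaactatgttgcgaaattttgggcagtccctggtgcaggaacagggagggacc
Cfp (chrX:20931556-20931805, minus strand): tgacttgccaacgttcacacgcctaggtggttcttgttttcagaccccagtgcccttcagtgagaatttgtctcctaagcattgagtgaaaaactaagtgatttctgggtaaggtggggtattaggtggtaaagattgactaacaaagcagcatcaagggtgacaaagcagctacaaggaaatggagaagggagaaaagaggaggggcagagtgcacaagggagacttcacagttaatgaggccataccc
C3ar1 (chr6:122856158-122856407, minus strand): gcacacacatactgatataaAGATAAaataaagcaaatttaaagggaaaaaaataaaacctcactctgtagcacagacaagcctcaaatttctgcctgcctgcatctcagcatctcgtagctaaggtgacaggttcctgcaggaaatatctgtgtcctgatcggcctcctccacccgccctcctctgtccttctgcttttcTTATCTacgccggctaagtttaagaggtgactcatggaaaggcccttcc
C1qb held GAGGAA at bases -30 to -25, counted back from the start site, and C1qc held GGAAGTG on the reverse strand at -196 to -190, overlapped by GAGGAA on the reverse strand at -193 to -188. C3ar1 held AGATAA at -230 to -225 and, on the reverse strand, at -49 to -44. No match was found in the windows of C3, Cfp and C5ar1, and TGATAA was found in none of the 6. Among all 32851 windows of this length, GGAAGTG was in 8.55%, GAGGAA in 23.3%, AGATAA in 9.99% and TGATAA in 7.94%, so such matches were common and describe letters, not binding.

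On the arrays, 80.4% to 89.6% of spots were well above background, no spot was saturated, and the 75th percentile of intensity ran from 452.5 to 598.9. EV replicate 3 had the lowest mean correlation with the other arrays (0.960, against 0.971 or more for the rest). The 3 slides each held 1 array of every group, so every difference could also be taken within a slide. Signals were scaled to each array's 75th percentile and given on the log2 scale as a level, so that a level of 0 is the signal of that percentile, and levels are compared only between groups for 1 probe. Gata2, the target of the first shRNA, fell by 1.63 (SE 0.23, adjusted p = 0.00398) in Gata2 KD, and Spi1, the target of the second, fell by 1.74 (SE 0.15, adjusted p = 0.0018) in Pu.1 KD and rose by 1.37 (adjusted p = 0.00129) in Gata2 KD. All adjusted p-values are from limma with Benjamini-Hochberg adjustment over the 36585 probes tested, with a threshold of 0.05.

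All 10 complement probes were well above background on all 9 arrays and all were tested. In Gata2 KD 4 of the 8 genes rose against EV (C3, Cfb, C1qc and Cfp) and none fell, where 4.05% of all 15808 genes represented rose and 3.07% fell. In Pu.1 KD 2 of the 8 fell (Cfp and C3ar1) and none rose, where 2.12% of all genes fell and 1.41% rose. Between the knockdowns, 5 of the 8 were higher in Gata2 KD than in Pu.1 KD (C3, Cfb, Cfp, C1qc and C3ar1) and none lower, where 6.55% of all genes were higher and 5.82% lower. The median log2 change of the 8 genes was 0.87 in Gata2 KD (all genes -0.11), -0.20 in Pu.1 KD (all genes -0.05) and 1.77 between the knockdowns (all genes -0.05). At an unadjusted p under 0.05 limma's counts were 5 higher and 0 lower in Gata2 KD (7.26% and 11.1% of all genes), 0 higher and 2 lower in Pu.1 KD (5.94% and 8.45%), and 5 higher and 0 lower between the knockdowns (10.4% and 12.3%). Both knockdowns were compared with the same EV arrays. Because the 8 genes were chosen with earlier results of these data known, these counts and medians describe them. They do not test whether complement genes moved more than others.

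**Figure D1:**
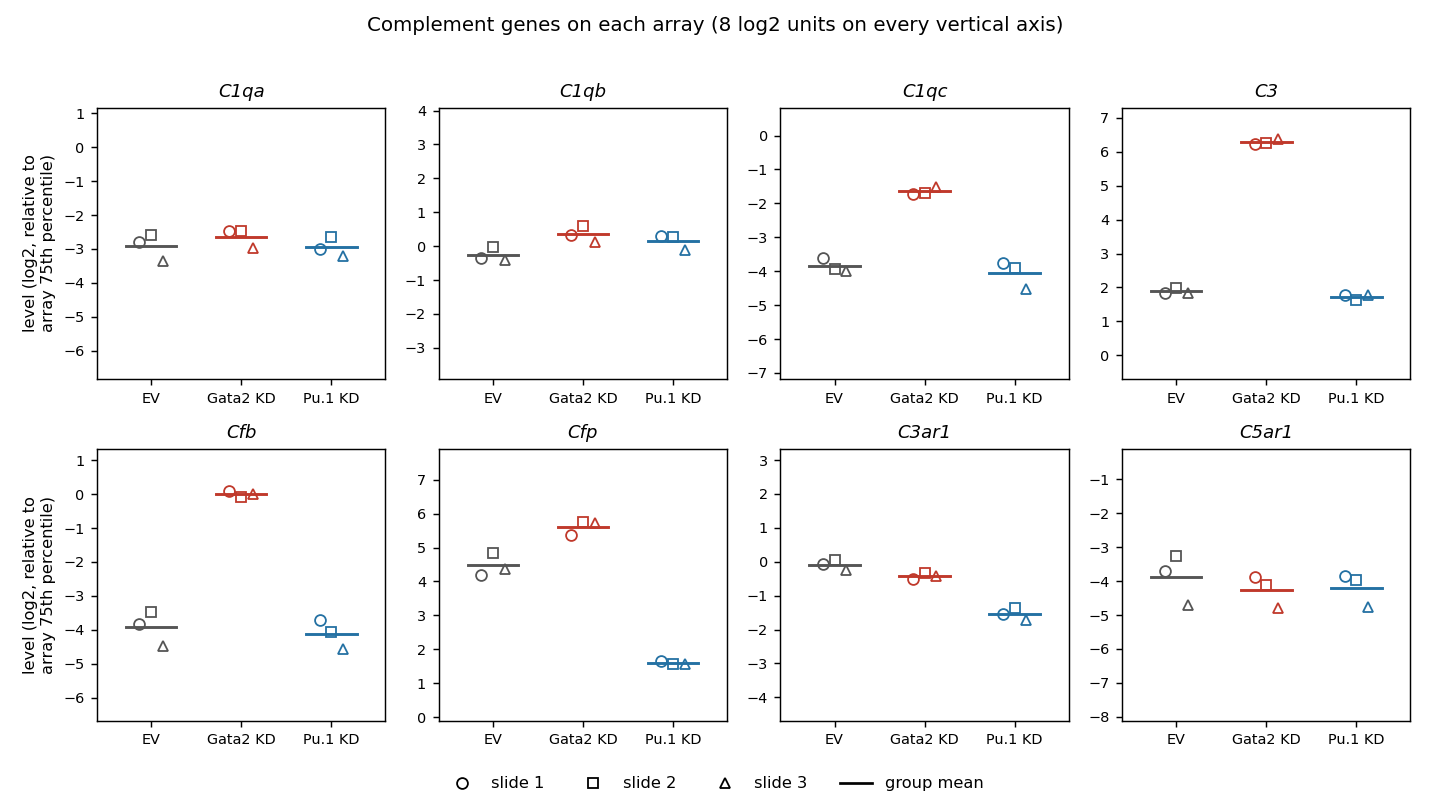
Level of each complement gene on each of the 9 arrays (log2 relative to the array's 75th percentile, every axis spanning 8 log2 units), with symbols for the slide and a line for the group mean. The Gata2 KD arrays stand above the others for C1qc, C3 and Cfb, the Pu.1 KD arrays lie lowest for Cfp and C3ar1, and the groups overlap for C1qa and C5ar1.

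**Figure D2:**
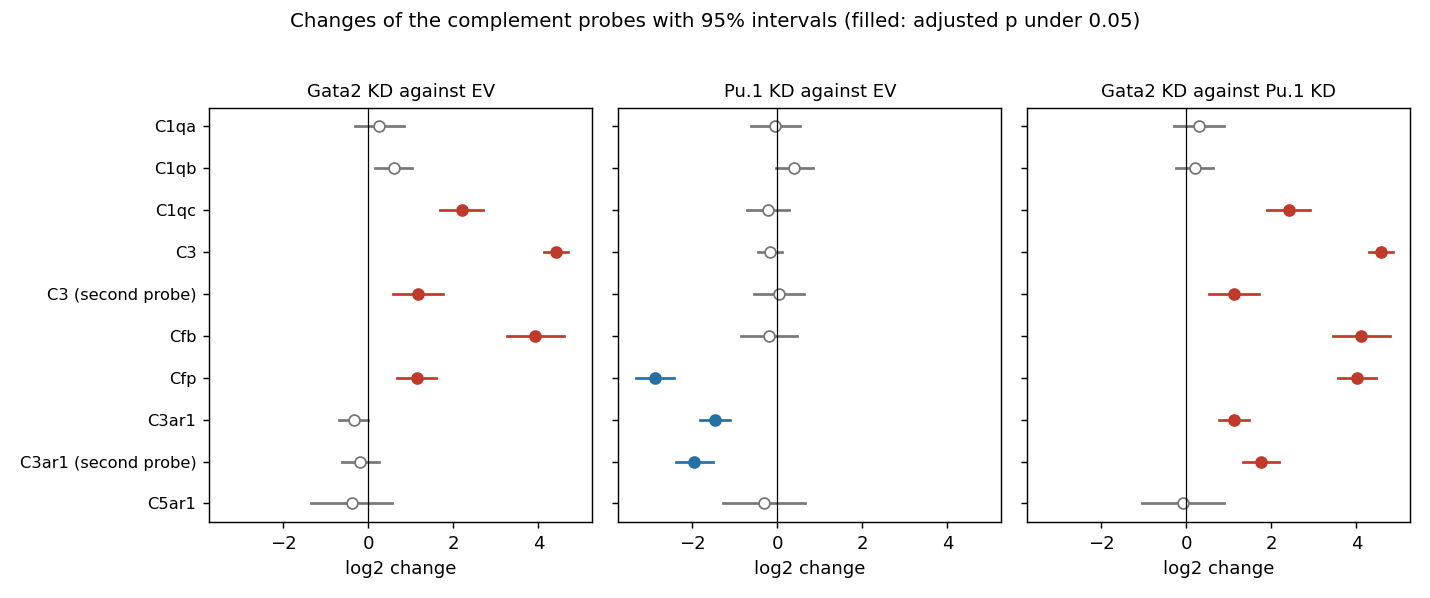
Log2 change of each of the 10 complement probes in the 3 comparisons, with 95% intervals and filled points where the adjusted p was under 0.05. C3 and Cfb lie farthest to the right in Gata2 KD (4.41 and 3.93) and Cfp farthest to the left in Pu.1 KD (-2.88).

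The C1q chains are encoded by a cluster of 3 neighboring genes on chromosome 4, in the order C1qb, C1qc, C1qa with no other annotated gene between them. C1qc (probe A_51_P102789) had levels of -3.60, -3.98 and -3.95 in EV replicates 1 to 3, -1.52, -1.70 and -1.71 in Gata2 KD, and -3.90, -4.52 and -3.75 in Pu.1 KD. Every Gata2 KD array lay above every other array, and EV and Pu.1 KD overlapped. C1qc rose 4.59-fold in Gata2 KD (log2 change 2.20, SE 0.22, adjusted p = 0.000636), by 1.89, 2.24 and 2.47 within slides 1, 2 and 3. In Pu.1 KD its change was -0.21 (95% interval -0.71 to 0.29, adjusted p = 0.905), and it was 5.32-fold higher in Gata2 KD than in Pu.1 KD (adjusted p = 0.000215). Its signal was dim, and with another background correction (normexp with an offset of 50) the rise was 1.26.

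C1qb (probe A_51_P351860) had levels of -0.35, -0.39 and -0.01 in EV, 0.12, 0.59 and 0.33 in Gata2 KD, and 0.28, -0.12 and 0.29 in Pu.1 KD. The Gata2 KD arrays did not overlap with EV, whereas the Pu.1 KD arrays did. The change in Gata2 KD was 0.60 (95% interval 0.16 to 1.04, adjusted p = 0.152) and did not pass the test, although its within-slide differences were 0.68, 0.60 and 0.51 and with slide as a block the adjusted p was 0.0245. In Pu.1 KD the change was 0.40 (95% interval -0.04 to 0.84, adjusted p = 0.474).

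C1qa (probe A_51_P181451) had levels of -2.79, -3.36 and -2.58 in EV, -2.97, -2.48 and -2.48 in Gata2 KD, and -2.64, -3.21 and -2.998 in Pu.1 KD. All 3 groups overlapped. The changes were 0.27 in Gata2 KD (95% interval -0.32 to 0.85, adjusted p = 0.812) and -0.04 in Pu.1 KD (95% interval -0.62 to 0.54), and the interval of the C1qc probe in Gata2 KD (1.70 to 2.70) lay above those of the C1qb and C1qa probes. Each chain had 1 probe.

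C3 had the largest change of the 8 genes by its representing probe, but not when its probes were averaged. That probe (A_51_P110301), printed as 10 spots on each array, had levels of 1.82, 1.83 and 1.99 in EV, 6.37, 6.27 and 6.24 in Gata2 KD, and 1.62, 1.78 and 1.76 in Pu.1 KD. The Gata2 KD arrays were separated from all others by over 4 log2 units, and the widest span of the 10 spots on an array was 0.454 (Gata2 KD replicate 2). C3 rose 21.3-fold in Gata2 KD (log2 change 4.41, SE 0.12, adjusted p = 3.67e-06), by 4.42, 4.28 and 4.54 within the slides. The Pu.1 KD arrays lay just below the EV arrays without overlap, but the change of -0.16 (95% interval -0.45 to 0.12, adjusted p = 0.799) did not pass the test. C3 was 23.8-fold higher in Gata2 KD than in Pu.1 KD (adjusted p = 6.73e-07).

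The other probe of C3 (A_52_P133594), at a single spot, had levels of -2.70, -3.55 and -3.17 in EV, -1.83, -2.10 and -1.96 in Gata2 KD, and -3.35, -3.24 and -2.67 in Pu.1 KD. It moved the same way, with all Gata2 KD arrays on top, but by less: 1.18 in Gata2 KD (SE 0.26, 95% interval 0.59 to 1.77, adjusted p = 0.0359), an interval that did not reach that of the first probe (4.13 to 4.70). Averaging the pair gave a rise of 2.80, below that of Cfb, so the size of the C3 change depended on the probe while its direction and call did not.

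Cfb, the alternative pathway protease (probe A_51_P413866), had levels of -3.83, -4.47 and -3.48 in EV, -0.0016, -0.09 and 0.11 in Gata2 KD, and -4.08, -4.56 and -3.70 in Pu.1 KD. The Gata2 KD arrays lay far above the rest and close to each other (SD 0.098, n = 3), while EV and Pu.1 KD overlapped. Cfb rose 15.3-fold in Gata2 KD (log2 change 3.93, SE 0.29, adjusted p = 0.000122), by 3.94, 3.39 and 4.46 within the slides. The change in Pu.1 KD was -0.18 (95% interval -0.85 to 0.48, adjusted p = 0.969). The gap between the knockdowns was 17.3-fold (adjusted p = 4.98e-05). The signal was dim in EV and Pu.1 KD, and the rise was 2.48 with the normexp correction.

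Cfp, encoding properdin, was the only one of the 8 genes that passed the test in all 3 comparisons. Its levels (probe A_51_P408363) were 4.19, 4.38 and 4.85 in EV, 5.72, 5.75 and 5.37 in Gata2 KD, and 1.57, 1.57 and 1.67 in Pu.1 KD. The 3 groups did not overlap, with Gata2 KD on top and Pu.1 KD at the bottom. Cfp fell 7.34-fold in Pu.1 KD (log2 change -2.88, SE 0.20, adjusted p = 0.000839), by 2.53, 3.29 and 2.81 within the slides. It rose 2.20-fold in Gata2 KD (log2 change 1.14, SE 0.20, adjusted p = 0.0117), with within-slide differences of 1.18, 0.90 and 1.34. The knockdowns stood 16.2-fold apart (adjusted p = 6.81e-06). The rise in Gata2 KD was the less certain of the calls, because without Gata2 KD replicate 2 its adjusted p was 0.0646 and with only the arrays of the groups compared it was 0.0634.

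Of the receptors, C3ar1 fell in Pu.1 KD on both of its probes. The representing probe (A_51_P282557) had levels of -0.06, -0.25 and 0.06 in EV, -0.42, -0.34 and -0.51 in Gata2 KD, and -1.36, -1.72 and -1.55 in Pu.1 KD. No groups overlapped, with EV on top, Gata2 KD just below it and Pu.1 KD lowest. The fall in Pu.1 KD was 2.75-fold (log2 change -1.46, SE 0.15, adjusted p = 0.00298), at -1.49, -1.42 and -1.47 within the slides, whereas the change of -0.34 in Gata2 KD (95% interval -0.68 to 0.01, adjusted p = 0.348) did not pass the test. The other probe (A_52_P81345) had levels of -2.69, -2.49 and -2.55 in EV, -2.55, -2.96 and -2.76 in Gata2 KD, and -4.71, -4.66 and -4.18 in Pu.1 KD. On it the Pu.1 KD arrays again lay below all others, a 3.84-fold fall (log2 change -1.94, SE 0.19, adjusted p = 0.00235), and Gata2 KD and EV overlapped (change -0.18, adjusted p = 0.836). Gata2 KD exceeded Pu.1 KD in C3ar1 level 2.18-fold on the first probe (adjusted p = 0.00188) and 3.39-fold on the second (adjusted p = 0.000498).

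C5ar1 (probe A_51_P279542) had levels of -3.70, -4.69 and -3.25 in EV, -4.80, -4.10 and -3.89 in Gata2 KD, and -3.98, -4.75 and -3.84 in Pu.1 KD. The groups overlapped throughout. Its changes were -0.38 in Gata2 KD (95% interval -1.34 to 0.57, adjusted p = 0.849) and -0.31 in Pu.1 KD (95% interval -1.27 to 0.65, adjusted p = 0.952), and both intervals included a fall of 1 log2 unit. The within-slide differences in Gata2 KD were -0.19, -0.85 and -0.11, so the one on slide 2, which held EV replicate 3, was the largest. C5ar1, C1qa and C1qb each had their lowest level on slide 3 in all 3 groups, and slide 3 had the lowest share of spots well above background (80.4% to 84.0%, against 85.6% to 89.6% on the other slides). The part of this in the spread of these probes was not tested.

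Each gene was set against the 15483 named genes with complete values to find those whose level over the 9 arrays was most like it by Pearson's r, a description of arrays that fall into the same 3 groups. C3 was most like Irf8 (r = 0.998), Sirpa (0.997) and Ctss (0.996). Cfb was most like Hfe (0.998), P2ry6 (0.997) and Maf (0.995), and C1qc was most like Apol7c (0.996), Slc6a12 (0.995) and Chil4 (0.994). Cfp was most like Tyrobp (0.999), Stab1 (0.996) and Pirb (0.996), and C3ar1 was most like Bola1 (0.985), Calml4 (0.985) and S100a5 (0.982). For the genes that passed no test with slide left out of the fit, the likeness ran over small differences. These were Ang (0.979), Cybb (0.972) and Olfr969 (0.971) for C1qa, and Olfr985 (0.947), Olfr690 (0.925) and B4galt4 (0.918) for C1qb. For C5ar1 they were Rassf9 (0.994) and Eml1 (0.990).

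The rest of the complement system was followed in a list of 50 genes, of which 47 were named on the array (C1rb, C7 and Cpn2 were not) and 46 were tested (Colec12 was too dim). In Gata2 KD 5 of the 46 rose and 3 fell (4.05% and 3.07% of all genes), and in Pu.1 KD 1 rose and none fell (1.41% and 2.12%). With slide as a block 6 rose and 3 fell in Gata2 KD, and 1 rose and 2 fell in Pu.1 KD. Calls over all 36585 probes also grew with that block. In Gata2 KD they went from 1036 to 1409 higher and from 854 to 1515 lower. In Pu.1 KD they went from 451 to 842 higher and from 511 to 988 lower. C1ra and C8a met the detection rule only with the arrays of the group in which they were highest, and without them 4 of 44 rose and 3 fell in Gata2 KD. The median change of the list was -0.11 in Gata2 KD and -0.12 in Pu.1 KD, against -0.11 and -0.05 over all genes. At an unadjusted p under 0.05, 7 of the 46 were higher and 6 lower in Gata2 KD (7.26% and 11.1% of all genes), and 4 higher and 7 lower in Pu.1 KD (5.94% and 8.45%). The calls of Cd55, Fcnb and Itgam in Gata2 KD were kept in all 21 alternatives, whereas those of Clu, Lrp1, Cd59a and Cd55b were kept in 16, 15, 12 and 12.

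**Figure D3:**
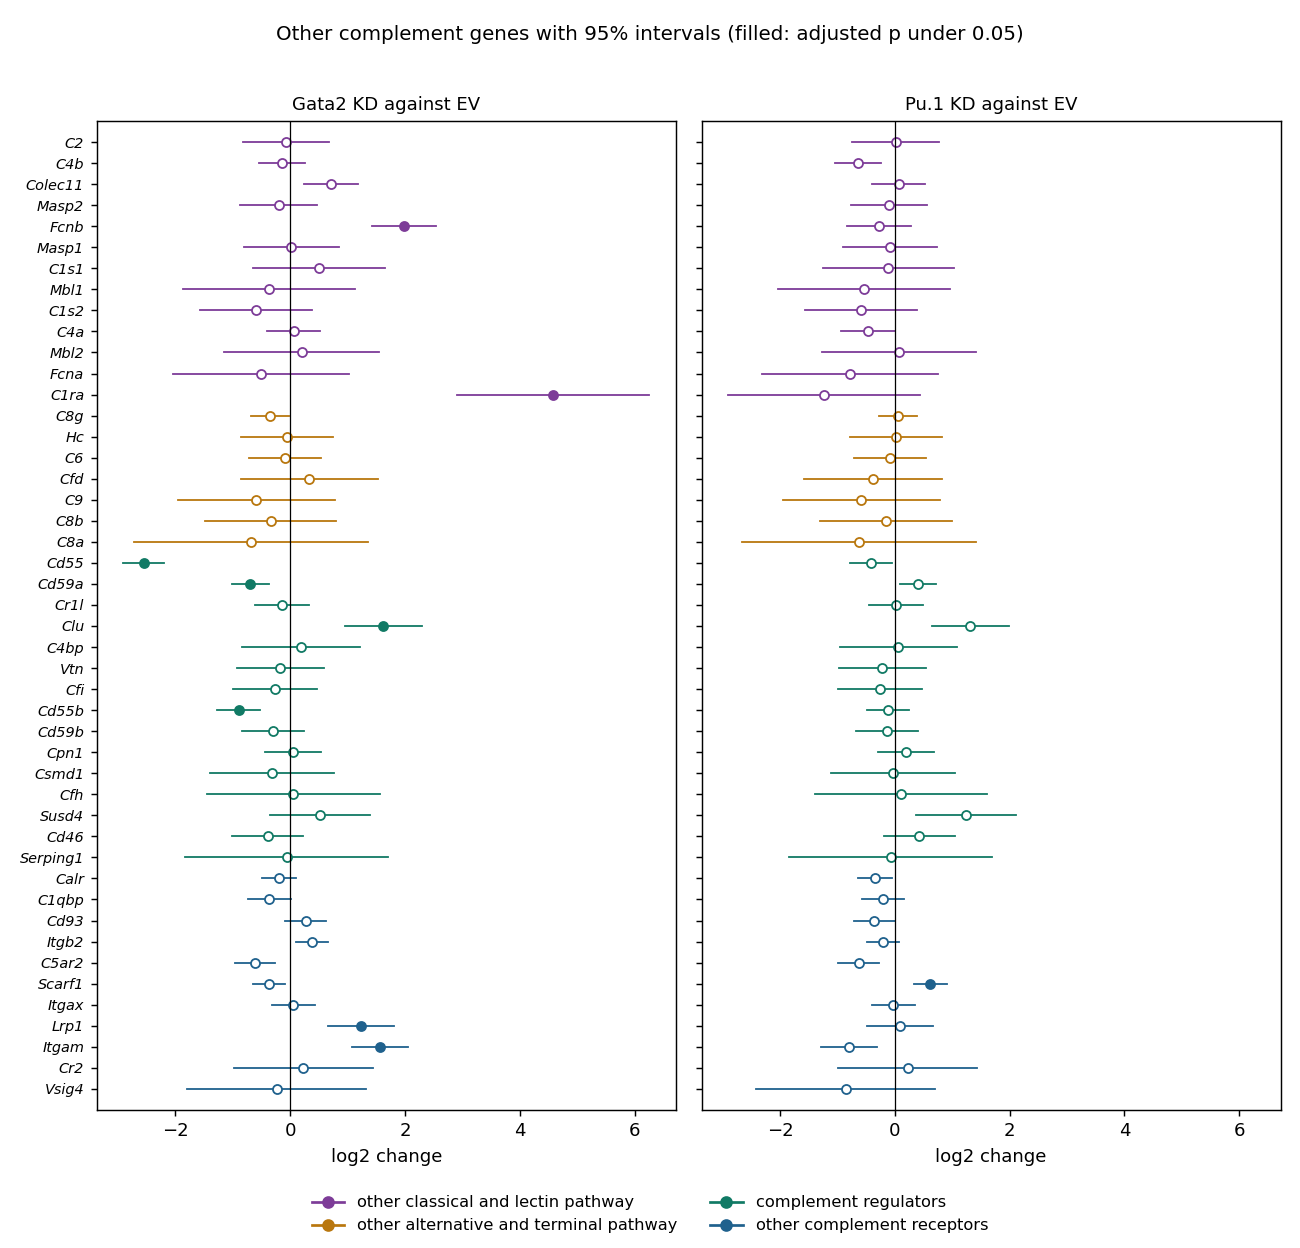
Log2 changes with 95% intervals of the 46 other complement genes in Gata2 KD and Pu.1 KD against EV, by role and, within a role, by mean level; filled points had an adjusted p under 0.05. In Gata2 KD the filled points are 5 rises (C1ra, Fcnb, Clu, Itgam, Lrp1) and 3 falls (Cd55, Cd55b, Cd59a), and in Pu.1 KD 1 rise (Scarf1).

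Among the other genes of the classical and lectin pathways, 2 of 13 were called higher in Gata2 KD (4.05% of all genes), of which Fcnb was well above background on all arrays and C1ra was not. Fcnb, a ficolin that recognizes microbial sugars, had levels of -3.53, -3.77 and -2.99 in EV, -1.50, -1.49 and -1.34 in Gata2 KD, and -3.53, -4.12 and -3.48 in Pu.1 KD, a rise of 1.99 in Gata2 KD (SE 0.24, adjusted p = 0.00203) with no overlap. Its signal was dim in EV and Pu.1 KD, and the rise was 1.29 with the normexp correction. C1ra, a protease of the C1 complex, had levels of -1.17, -1.75 and -1.83 in Gata2 KD and was well above background on only 1 of the 3 EV arrays (replicate 3, level -4.66), so its fitted change (adjusted p = 0.00804) is not a measured size. It met the detection rule only through the Gata2 KD arrays, where it is high, so its selection favored a difference and its call is no independent result. In Pu.1 KD no C1ra value was well above background, and the Gata2 KD mean lay 25.6-fold above a floor. That floor was the lowest signal well above background on each Pu.1 KD array or the probe's own, whichever was higher. The floor is not a detection limit for this probe. In EV replicate 2 C1ra had a level of -5.95, above that array's lowest of -6.21, yet was not well above background. Nor is 25.6-fold a minimum, because over the alternatives the log2 change between the knockdowns went down to 1.998.

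C4b, which joins C2 in the classical convertase and whose near-identical copy C4a may share its probe, changed by -0.14 in Gata2 KD and -0.64 in Pu.1 KD (adjusted p = 0.888 and 0.127). C2 itself changed by -0.07 and 0.01 (adjusted p = 0.979 or more). Colec11, a collectin, changed by 0.71 and 0.07 (adjusted p = 0.103 and 1.00), and the lectin pathway protease Masp2 by -0.20 and -0.10 (adjusted p = 0.912 and 1.00). None of the 7 other alternative and terminal pathway genes passed limma's test in any comparison, and the count with an unadjusted p under 0.05 was 1 in Gata2 KD (C8g), 0 in Pu.1 KD and 1 between the knockdowns. Of these, Hc (complement C5) changed by -0.05 in Gata2 KD and 0.02 in Pu.1 KD, C6 by -0.08 in both, C8g by -0.35 and 0.05, and Cfd (factor D, which cleaves factor B) by 0.33 and -0.38, the last with 95% intervals of -0.86 to 1.53 and -1.58 to 0.81.

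Among 15 regulators, 3 fell in Gata2 KD and 1 rose (3.07% and 4.05% of all genes). Cd55, a membrane protein that speeds the decay of the C3 convertases, had levels of 2.30, 2.35 and 2.36 in EV, -0.05, -0.24 and -0.34 in Gata2 KD, and 1.73, 1.87 and 2.18 in Pu.1 KD. It fell by 2.55 (SE 0.16, adjusted p = 4.89e-05) in Gata2 KD, with no overlap, and its change in Pu.1 KD was -0.42 (adjusted p = 0.296). Its copy Cd55b fell by 0.90 (SE 0.16, adjusted p = 0.0144) and Cd59a, which blocks the membrane attack complex, by 0.69 (SE 0.14, adjusted p = 0.0242) in Gata2 KD. Both pairs, Cd55 with Cd55b and Cd59a with Cd59b, are close copies whose transcripts a probe may share.

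Clu, encoding clusterin, which binds terminal complexes in fluid, rose by 1.62 (SE 0.29, adjusted p = 0.0142) in Gata2 KD, and its change in Pu.1 KD was 1.31 (adjusted p = 0.0599). Neither knockdown overlapped with EV, and the knockdowns differed by 0.31 (adjusted p = 0.810). The call in Pu.1 KD depended on the processing. Its limma adjusted p was 0.0377 with normexp and 0.0110 with quantile normalization, but 0.0923 with the replicate block and 0.199 with only the groups compared. Cr1l, C4bp, Vtn and Cfi did not pass the test in either knockdown, with changes of -0.14, 0.19, -0.17 and -0.27 in Gata2 KD and of 0.02, 0.06, -0.22 and -0.26 in Pu.1 KD. Cd55, Cd59a and Cd55b also stood lower in Gata2 KD when set against Pu.1 KD (adjusted p = 6.36e-05, 0.00133 and 0.0176), which for Cd55b was kept in 11 of 21 alternatives and for the others in all.

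Of 11 other receptors, Itgam and Lrp1 rose in Gata2 KD (4.05% of all genes) and Scarf1 rose in Pu.1 KD (1.41% of all genes). Itgam, the alpha chain of complement receptor CR3, had levels of -1.29, -1.68 and -1.38 in EV, 0.04, 0.16 and 0.15 in Gata2 KD, and -2.22, -2.66 and -1.86 in Pu.1 KD, and the 3 groups did not overlap. It rose by 1.57 (SE 0.21, adjusted p = 0.00364) in Gata2 KD, and its change in Pu.1 KD was -0.80 (adjusted p = 0.116). The limma adjusted p in Pu.1 KD was 0.0322 with slide as a block, 0.0331 with quantile normalization and 0.0444 with the deposited values. It was above the threshold in the other alternatives. Its partner chain Itgb2 changed by 0.38 and -0.21 (adjusted p = 0.159 and 0.644), and the alpha chain of CR4, Itgax, by 0.06 and -0.03.

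Lrp1, a scavenger receptor that can bind C1q-coated material, rose by 1.24 (SE 0.25, adjusted p = 0.0262) in Gata2 KD, and Scarf1, another scavenger receptor, by 0.62 (SE 0.12, adjusted p = 0.0384) in Pu.1 KD. The call of Scarf1 was kept in 8 of 21 alternatives and was lost without any 1 of the 9 arrays, with adjusted p-values up to 0.208 over the alternatives. Calr, C1qbp and Cd93, each described as binding C1q, changed by -0.20, -0.36 and 0.27 in Gata2 KD and -0.35, -0.21 and -0.36 in Pu.1 KD, and none passed the test. Between the knockdowns Itgam (2.36), Lrp1 (1.15), Cd93 (0.63) and Itgb2 (0.59) were higher and Scarf1 (-0.99) lower in Gata2 KD, of which Itgam and Scarf1 were called in all 21 alternatives, Lrp1 in 16, Itgb2 in 13 and Cd93 in 10.

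These are bulk samples of sorted cells, in which more cells of a type and more RNA per cell cannot be told apart, and markers of other cell types moved with the complement genes. Over all genes, 4.05% rose and 3.07% fell in Gata2 KD, and 1.41% rose and 2.12% fell in Pu.1 KD. Of 10 monocyte and macrophage markers tested, 6 rose in Gata2 KD and 2 fell in Pu.1 KD, and their summed level (log2) was 2.45 to 2.74 in EV, 4.92 to 5.07 in Gata2 KD and 1.76 to 2.17 in Pu.1 KD. Mrc1, 1 of the 6, and Mertk met the detection rule only through the Gata2 KD arrays, and without them 5 of 8 rose. On their representing probes Csf1r rose by 4.50, Cd14 by 3.15 and Adgre1 by 2.09 in Gata2 KD, whereas Marco changed by -0.05 (adjusted p = 0.985). Dimmer probes moved less. Mean levels in EV and Gata2 KD were -2.31 and 0.95 on one further Csf1r probe. They were -2.47 and -1.96 on another, where the groups overlapped. The other Adgre1 probe had -4.88 and -3.61, also with overlap. Of 12 neutrophil markers 11 rose in Gata2 KD and 9 fell in Pu.1 KD, with summed levels of 7.88 to 8.06 in EV, 10.09 to 10.35 in Gata2 KD and 6.69 to 6.93 in Pu.1 KD. Mpo, S100a9 and S100a8 rose by 3.06, 2.73 and 3.58 and fell by 2.81, 2.29 and 1.80, respectively, and Ctsg rose by 0.94 in Gata2 KD. The part of these markers in the complement changes was not tested.

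**Figure D4:**
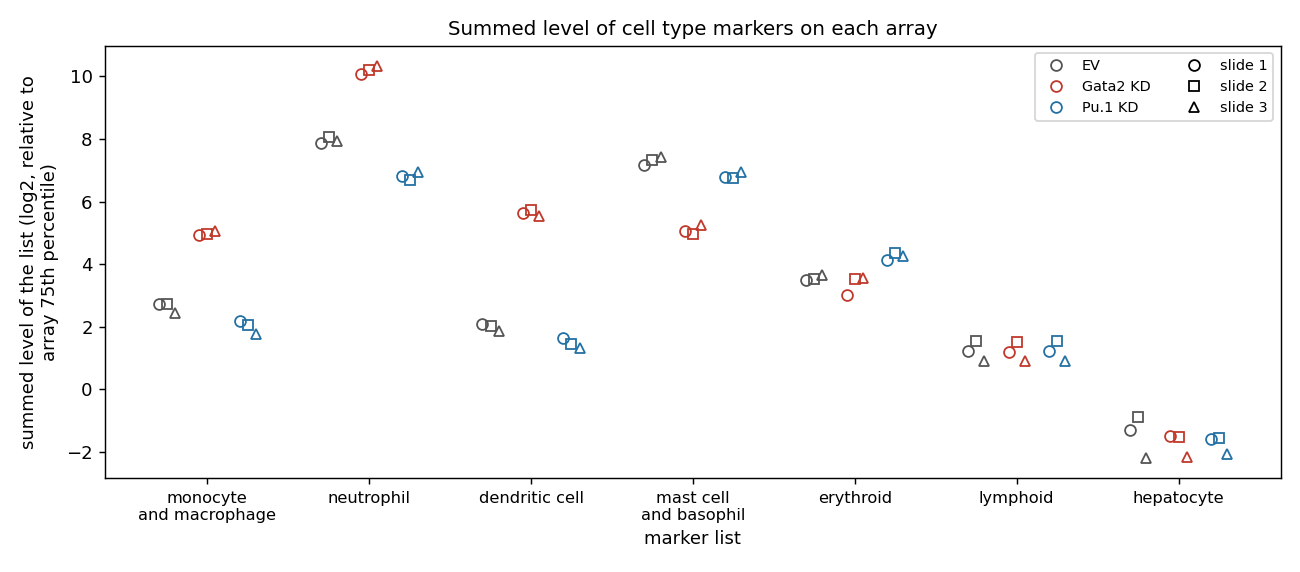
Summed level of the marker lists on each array (log2 relative to the array's 75th percentile, colors for groups and symbols for slides, lists not comparable with each other). The progenitor and pan-leukocyte list is not drawn. The monocyte and macrophage, neutrophil and dendritic cell lists are highest on the Gata2 KD arrays, the mast cell and basophil list is lowest there, and the groups overlap for the lymphoid and hepatocyte lists.

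Of 8 dendritic cell markers 3 rose in Gata2 KD and 3 fell in Pu.1 KD (summed level 1.86 to 2.08 in EV, 5.53 to 5.74 in Gata2 KD and 1.32 to 1.65 in Pu.1 KD), and in both cases these were the class II genes Cd74, H2-Ab1 and H2-Aa. Of 8 mast cell and basophil markers, which include Gata2, 6 fell and 1 rose in Gata2 KD, and 2 fell and 1 rose in Pu.1 KD. Of 7 erythroid markers 3 fell in Gata2 KD and 2 rose in Pu.1 KD, and of 8 progenitor and pan-leukocyte markers 3 rose and 2 fell in Gata2 KD and 1 rose and 1 fell in Pu.1 KD. The shares over all genes were 4.05% higher and 3.07% lower in Gata2 KD, and 1.41% higher and 2.12% lower in Pu.1 KD. None of 6 lymphoid and none of 4 hepatocyte markers passed limma's test in any comparison, nor had any an unadjusted p under 0.05. The hepatocyte list had summed levels of -2.21 to -0.88 in EV, -2.18 to -1.48 in Gata2 KD and -2.06 to -1.55 in Pu.1 KD, and Alb, the albumin gene, had overlapping levels in EV (-5.29 to -3.03) and Gata2 KD (-5.06 to -4.19).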

How the data were processed

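The 9 samples were grouped, and their replicate numbers taken, from the sample titles. Per the labels, 150 ng of total RNA per sample was labeled with Cy3 for Agilent whole mouse genome arrays. Scanner files (Agilent Feature Extraction 10.1.1.1) were deposited, in which the processed signal is an intensity, background-subtracted within the array and not scaled between arrays, together with a table of log2 values. The deposited log2 values had column medians of 7.00 to 7.05 and had a correlation of 0.997 or more with each array's own log2 median signals, but how they were scaled is not given in the sources used here, so they served as an alternative only. Processed signals lean on the background correction of dim spots.

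Log2 processed signals minus the array's 75th percentile were used. Control spots were left out, spots flagged as outliers (47 to 96 per array) were set missing and repeat spots were averaged. Tested probes were those well above background on 3 or more of the 9 arrays (for a probe with several spots, on 50% or more of them) with 2 or more values in each group: 36585 of 41174. Accessions matched a RefSeq table (GRCm38.p6, used for names and gene order) for 23374 probes. The tested probe with the highest mean level represented a gene (15808 genes). The comparisons used limma 3.58.1 (R 4.3.3; lmFit over all 9 arrays, eBayes, two-sided), with a threshold of 0.05 after Benjamini-Hochberg adjustment over all tested probes. The procedure was tested on simulated data. The number of arrays limits the precision.

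The members and lists were chosen with earlier results of these data known. Named were all 8 members, Gata2 and Spi1, every other complement gene past the threshold against EV with up to 4 more per role by mean level (further genes past it between the knockdowns were named after their values were seen), up to 4 markers per list by mean level (fewer in the text, and the class II genes after their values were seen), and the 3 genes most like each member (1 of them is not reported here). Alternatives were a replicate or slide block, normexp on the median signal, quantile or median scaling, other filters, kept outliers, trend and robust eBayes, the deposited log2 values, fewer groups, averaged probes and leaving out each array.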

Additional observations from a re-analysis of the deposited data

How the results depend on the processing

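The calls of C3, Cfb and C1qc in Gata2 KD, of Cfp and C3ar1 in Pu.1 KD and of the 5 genes between the knockdowns were kept in all 21 alternatives. Of 504 changes of members recomputed, 482 kept direction and side of the threshold. Members called in Gata2 KD numbered 3 to 5 (3 to 4 leaving out an array). Same-numbered arrays did not deviate together (correlations -0.55 to 0.65, 6 of 18 best matches), unlike arrays of 1 slide (-0.04 to 0.72, 14 of 18), so the numbers were not taken as pairs. With the replicate number as a block, Cfp in Gata2 KD had an adjusted p of 0.0506 and the calls were 3, 2 and 5 members and 6, 0 and 7 other complement genes in the 3 comparisons. Calls over all probes were then 1167, 227 and 2350. The other complement genes called in Pu.1 KD (main 1) were 0 with the replicate block, without a filter on dim probes and with only the groups compared, 2 when a probe had to exceed background on every array, 3 with slide as a block, with normexp and with trend and robust, 4 with quantile normalization, 6 with the deposited values, and 0 to 1 leaving out an array. All-probe calls in Pu.1 KD (main 962) were 227 with the replicate block, 808 without the filter and 219 with only the groups compared. They were 1209 with the rule for every array, 1830 with slide as a block, 1401 with normexp and 1565 with trend and robust. With quantile normalization they were 1095, with the deposited values 1785, and leaving out an array 277 to 822. The other complement genes called in Gata2 KD (main 8) were 4 with only the groups compared and 4 to 8 leaving out an array (5 without EV replicate 1, 4 without Gata2 KD replicate 1, 4 without replicate 2 and 5 without replicate 3). All-probe calls there (main 1890) were 1106 with only the groups compared and 1047 to 1697 leaving out an array. Between the knockdowns (main 10) the other complement genes called were 6 to 10 leaving out an array, 6 without Gata2 KD replicate 1 or 2 or Pu.1 KD replicate 2. All-probe calls there (main 3517) were 2211 to 3942 leaving out an array. The sign reversed only for changes that passed no test. C1qa in Pu.1 KD was 0.021 with normexp, 0.041 with quantile normalization, 0.0041 with median scaling, 0.058 with the deposited values and -0.26 to 0.13 leaving out an array. C1qc and Cfb in Pu.1 KD were 0.068 and 0.015 with quantile normalization, and -0.37 to 0.019 and -0.45 to 0.038 leaving out an array, and C5ar1 in Pu.1 KD was -0.71 to 0.0079. C5ar1 between the knockdowns was 0.028 with normexp, 0.031 with the deposited values and -0.36 to 0.19 leaving out an array. Over all probes, calls in Gata2 KD were 1036 higher and 854 lower, and 827 and 364 with scaling to the array median. All calls were 1890, 962 and 3517 in the 3 comparisons, 1047 to 2924, 219 to 1830 and 2211 to 5170 over the alternatives, most with slide as a block, and 1047 (without Gata2 KD replicate 2), 277 (without Pu.1 KD replicate 1) and 2211 (without Gata2 KD replicate 2) at least when an array was left out. The cause of these shifts was not tested.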
